A study of Arabidopsis thaliana with 16 samples.

Results

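Upper and lower meristem of iron-starved Arabidopsis roots were compared on 4 arrays of a 16-array series. The 2 arrays labelled longitudinal zone 2 on -Fe medium were set against the 2 labelled zone 1 on -Fe medium, and no measured value entered that choice. The full series cut seedling roots into 4 pieces along their length, on -Fe and on standard medium, with 2 Affymetrix arrays per piece and medium. Zone 2 -Fe roots and zone 1 -Fe roots were both Arabidopsis thaliana, Columbia ecotype, without a transgene or mutation named in the labels. They grew for 5 days on standard medium before transfer to medium with 0.3 mM of the iron chelator Ferrozine in place of the iron salt. Zone 1 was the lowest piece, about 150 µm long with the tip, and zone 2 the next 200 µm, up to where the meristem ends. About 15 roots were pooled per replicate, so an array averages over all cell types of its piece. The zone 2 and zone 1 pieces on standard medium, also 2 arrays each, serve below as a second measurement of the same step. The labels conflict on time after transfer, with 24 h for -Fe roots throughout but 1 h in the descriptions and 24 h in the protocol for standard roots. Both -Fe zones share whatever time is right.

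The root tip is a line of cells in successive states. The lowest piece carries the root cap, the stem cell niche and rapidly dividing cells, which make new ribosomes and proteins at a high rate. Cells displaced upward slow their divisions, switch to repeated DNA copying without division, and begin to loosen and rebuild their walls for elongation. In iron-starved roots a network of bHLH transcription factors turns on genes for iron uptake and redistribution.

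Values are array intensities scaled to a common mean, and the median intensity was 53.3 and 51.9 in zone 2, against 64.6 and 67.2 in zone 1. A log2 difference below is the mean of log2(intensity + 7.73) in zone 2 minus that in zone 1, with its standard error, and is called where limma's p-value, adjusted by Benjamini-Hochberg over 16505 probe sets, is under 0.05. Replicates correlated across probe sets at 0.974 in zone 2 and 0.951 in zone 1. Degraded or poorly amplified RNA raises the signal of a transcript's 3' end over its 5' end, and for ubiquitin this ratio was 3.21 and 3.96 in zone 2, against 5.32 and 6.41 in zone 1, while for actin it was 5.58 and 5.18, against 7.19 and 5.81. Both ratios were thus higher in zone 1 on every array, and their part in the differences below was not tested. The labels name no separate cultures behind the replicates, so the tests see only how far these pools differ, which may be technical.

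Replicate 1 of zone 1 -Fe stood apart, on the side of zone 2. This was read from the probe sets called higher in zone 2 on standard medium. Their differences used none of the 4 -Fe arrays, but the estimate of spread behind the calls came from all arrays of the series. A wide gap between -Fe replicates thus made a call less likely, so the choice of probe sets was not fully independent of these arrays. In zone 2 -Fe these probe sets averaged 8.97 and 8.96 on the log2 scale. In zone 1 -Fe they averaged 7.77 on replicate 1 and 7.37 on replicate 2, against 7.39 and 7.41 in zone 1 on standard medium. Replicate 1 lay above replicate 2 for 1321 of these 1754 probe sets (75.3%), by a median of 0.28. For the 1623 probe sets called lower on standard medium it lay above for 579 (35.7%). Counts of calls that rest on single arrays are therefore given without them as well. Each such fit leaves 1 array in a group and assumes that it varies as the other groups do, so fewer arrays alone lower the counts.

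**Figure D1:**
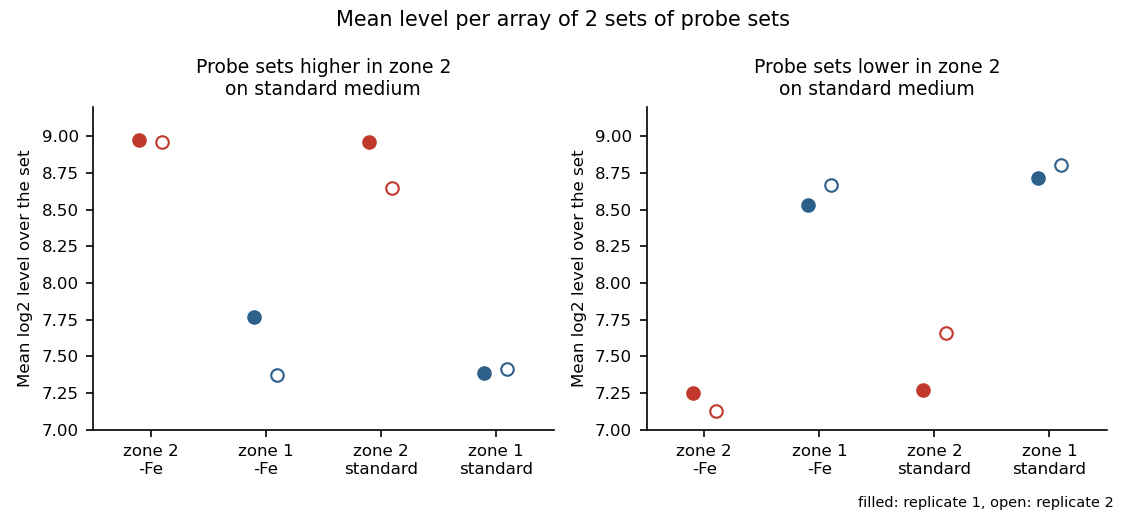
Mean log2(intensity + offset) per array over the 1754 probe sets higher (left) and the 1623 lower (right) in zone 2 on standard medium, with filled points for replicate 1 and open points for replicate 2. Among the zone 1 arrays, replicate 1 on -Fe medium is the highest on the left, at 7.77 against 7.37 to 7.41 for the other 3.

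The labelled zones were checked against 36 markers of root cap, stem cell niche, dividing, phloem, xylem, endodermis and root hair cells, of which 4 had a named probe set. AUR1, an Aurora kinase of dividing cells, read 294 and 314 in zone 2, against 981 and 1164 in zone 1, with zone 3 lower still at 108 and 133. The root hair expansin EXPA7 read 70.7 and 27.9 in zone 2, against 33.7 and 25.6 in zone 1, and then 4131 and 5191 in zone 3. EXPA18 likewise read 58.3 and 1.70 in zone 2, against 26.6 and 18.0 in zone 1, and 3692 and 4196 in zone 3. Both lower pieces therefore lay below the root hair zone. AGL42, a MADS-box factor of the stem cell niche, read 68.8 and 76.8 in zone 2, against 76.6 and 103 in zone 1, and so did not set the tip apart. None of the root cap, phloem, xylem or Casparian strip markers among the 36 could be read by name.

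Zone 2 differed from zone 1 in a large share of the measured transcriptome. Of 16505 probe sets, 5062 were called (30.7%), 2216 of them higher (13.4%) and 2846 lower (17.2%) in zone 2. All 5062 had 2 and 2 arrays that did not overlap, as did 70.5% of all probe sets (29.9% with zone 2 higher and 40.6% with zone 2 lower). A difference of over 2-fold was reached by 1513 of the higher and 2157 of the lower probe sets, and one of over 8-fold by 55 and 31. The split between directions depended on the scaling, with 2623 higher and 2144 lower after median centring and 2449 and 2270 after quantile normalization. The median of all probe sets was -0.15 as deposited and 0.02 after centring. The count was 1400 without zone 1 replicate 2, 1697 without zone 2 replicate 2, 2760 without zone 2 replicate 1 and 3435 without zone 1 replicate 1. In pooled pieces, fewer cells of a type and less RNA per cell cannot be told apart, which holds for every difference below.

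The 14 largest increases among probe sets of a single gene were led by AT1G61840. It read 266 and 344 in zone 2, against 2.55 and 1.03 in zone 1, a log2 difference of 5.03 ± 0.54 (adjusted p = 0.000728). Its zone 1 values lay below the offset, on which the size depends, with 4.21 at a doubled offset and 7.54 without one. It was as high in zone 3, at 216 and 349, and back to 0.476 and 4.29 in zone 4, so its signal covered the upper meristem and the elongation zone. AT2G43890 was more sharply placed. It read 585 and 308 in zone 2, against 42.03 and 7.37 in zone 1 (3.98 ± 0.66, adjusted p = 0.00225), and fell away to 33.7 and 43.1 in zone 3.

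Of the 14, 3 carry a gene symbol, and all 3 belong to wall families. CSLA03, of the cellulose synthase-like family that makes mannan backbones, read 536 and 700 in zone 2, against 80.0 and 29.4 in zone 1 (3.44 ± 0.47, adjusted p = 0.00118). TBL19, of a family whose studied members acetylate wall polysaccharides, read 241 and 106 in zone 2, against 21.0 and 1.49 in zone 1 (3.36 ± 0.52, adjusted p = 0.00182). EXPB1, a beta-expansin, read 360 and 616, against 85.6 and 15.995 (3.35 ± 0.83, adjusted p = 0.0113). No pair of groups overlapped, though EXPB1 lost the call without zone 1 replicate 2 or zone 2 replicate 2 (adjusted p up to 0.11). Over the 4 fits without single arrays its difference ran from 2.36 to 4.34, and 2.36 was without zone 1 replicate 2.

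AT1G04040 was the brightest of the increases without a listed role, at 5251 and 4761 in zone 2, against 1469 and 149 in zone 1 (3.38 ± 0.75, adjusted p = 0.00692). Its zone 1 arrays differed by nearly as much as the zones did, and its difference was 1.76 without zone 1 replicate 2 and 4.99 without replicate 1. AT5G04120 (4.30 ± 0.87) and AT4G25250 (3.79 ± 0.78) lost the call without zone 1 replicate 2, AT5G04120 at an adjusted p of 0.0513. AT2G37440 (3.39) and AT4G01140 (3.31) kept it without any of the 4 arrays, and both had higher means again in zone 3, where AT4G01140 read 1337 and 1485 and AT2G37440 read 477 and 433. Replicate 1 of zone 1 lay above replicate 2 for 14 of these 14 genes, in the direction in which that array stood apart. Of the 14, 12 were also called higher on standard medium. A zone 1 array lay below the offset for 5 of the 14, and their sizes depend on it. TBL19, 1 of the 5, came to 2.82 with a doubled offset and 4.83 without one.

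The 14 largest decreases were led by a pair of transcripts that were bright in the tip and at the bottom of the scale above it. AT1G65570 read 2.33 and 1.46 in zone 2, against 1266 and 2851 in zone 1, a difference of -7.63 ± 0.51 (adjusted p = 3.69e-05). The root cap marker list holds this locus under the name RCPG, but the annotation gives the locus alone, so it was counted in no list. AT1G50060 read 12.6 and 1.00 in zone 2, against 1056 and 832 in zone 1 (-6.15 ± 0.56, adjusted p = 0.00046). Neither came back above 13 intensity units in zones 3 and 4 on any -Fe array. With no offset the sizes came out larger, at -10.01 for AT1G65570 and -8.05 for AT1G50060.

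Named genes among the decreases had several enzyme and regulatory roles. ATGSTF13, a phi-class glutathione transferase, read 57.4 and 67.6 in zone 2, against 933 and 1498 in zone 1 (-4.09 ± 0.46, adjusted p = 0.000767). ATLP-1, a thaumatin-like protein, read 246 and 170, against 1452 and 2261 (-3.10 ± 0.44, adjusted p = 0.00132). ROXY1, a glutaredoxin known from flower development, read 13.7 and 4.52 in zone 2, against 155 and 226 in zone 1 (-3.59 ± 0.44, adjusted p = 0.00104). GH9B6, of the endoglucanase family 9, read 1.92 and 2.97, against 140 and 76.9 (-3.46 ± 0.69), and IQD16, of a family that binds calmodulin, read 18.0 and 31.4, against 260 and 397 (-3.38 ± 0.41). The other 7, known by locus, were AT3G15720, AT3G15680, AT4G27400, AT5G40320, AT4G26880, AT2G46850 and AT2G04480, with differences from -3.85 to -3.16. A zone 2 array lay below the offset for 6 of the 14 decreases, and their sizes depend on it. GH9B6, 1 of the 6, came to -2.74 with a doubled offset and -5.44 without one. All 14 were also called lower on standard medium and kept the call without each of the 4 -Fe arrays.

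**Figure D2:**
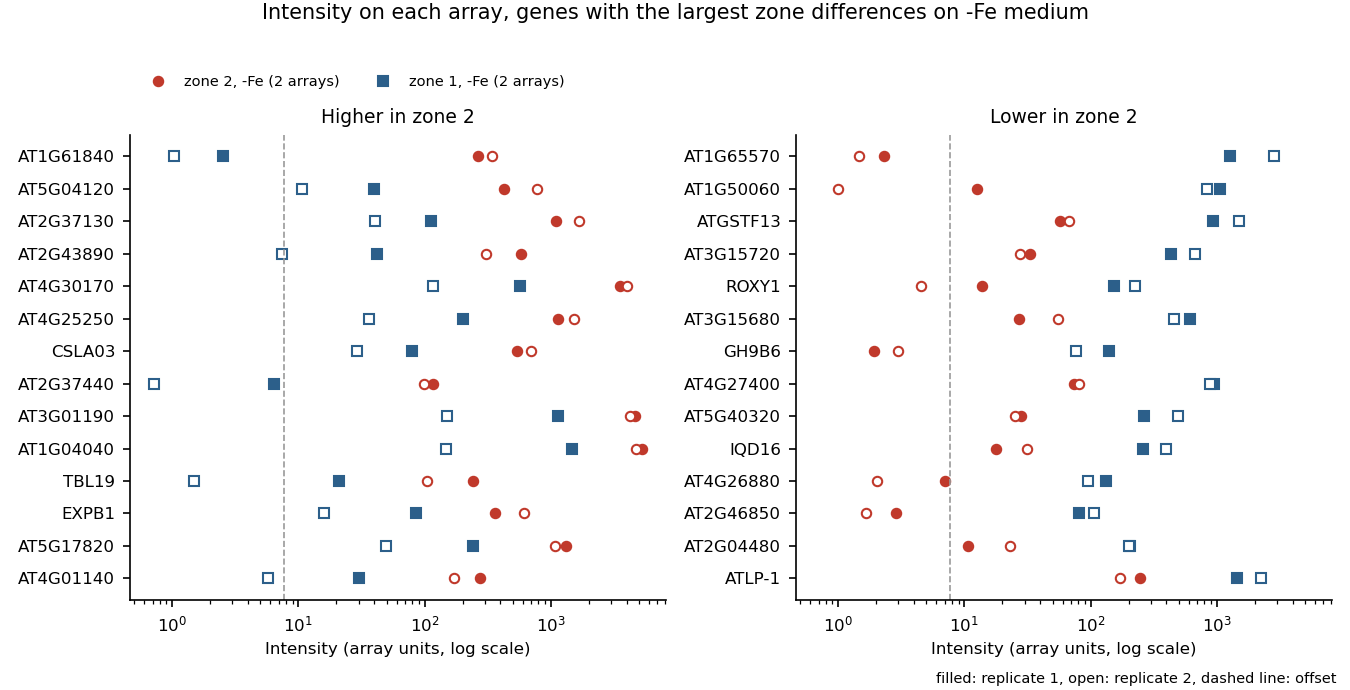
Intensity (log axis) on the 2 zone 2 arrays (circles) and the 2 zone 1 arrays (squares) for the 14 largest increases and the 14 largest decreases, with filled symbols for replicate 1 and open symbols for replicate 2. The zones do not overlap for any of the 28 genes, and on the left the filled square lies right of the open one for all 14.

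Most measured genes of cell division were lower in the upper meristem. The mitosis list named 59 loci, and 22 genes were measured. Of these 22 genes 17 were lower (77.3%) and 0 higher in zone 2, with a median of -1.71. Over all probe sets 17.2% were lower, with a median of -0.15. TOPII, the topoisomerase that untangles sister chromatids, read 256 and 144 in zone 2, against 1114 and 934 in zone 1 (-2.36 ± 0.34, adjusted p = 0.00146). AUR1, whose levels are given above, differed by -1.79 ± 0.30 (adjusted p = 0.00216). Haspin, a histone H3 kinase of mitosis, read 61.5 and 61.0, against 208 and 240 (-1.75 ± 0.35, adjusted p = 0.00431).

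The other Aurora kinase genes and the spindle checkpoint gene BUB3.1 had differences of much the same size, from -1.86 for AUR3 to -1.65 for BUB3.1. AUR3 lost the call without zone 1 replicate 2, BUB3.1 without replicate 2 of either zone, and AUR2 without any of the 4 arrays. HTR12, the centromeric histone H3, was not called, at 68.2 and 80.6 in zone 2, against 132 and 146 in zone 1 (-0.84 ± 0.38, adjusted p = 0.109). Of the 17 calls, 15 held without zone 2 replicate 1, 5 without zone 2 replicate 2, 10 without zone 1 replicate 1 and 4 without zone 1 replicate 2. With either other scaling 16 of 22 were lower.

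Measured genes of DNA copying moved the same way with fewer calls. The replication list named 55 loci, and 6 genes were measured. Of these, 3 were lower (50%, beside 17.2% of all probe sets) and 0 higher (median -0.81). POLD3, a subunit of DNA polymerase delta, read 107 and 62.2 in zone 2, against 234 and 254 in zone 1 (-1.49 ± 0.36, adjusted p = 0.0103), and lost the call without zone 1 replicate 2 or zone 2 replicate 2 (adjusted p up to 0.0985). PRL, the MCM7 subunit of the replicative helicase, read 458 and 470, against 929 and 849 (-0.93 ± 0.28, adjusted p = 0.0267) and lost it without any of the 4 arrays. Of 3 replication calls, 2 held without replicate 1 of either zone, 1 without zone 2 replicate 2 and 0 without zone 1 replicate 2. The histone list named 43 loci, and 11 genes were measured. Of these 11 histone genes 0 were lower and 2 higher (18.2%, beside 13.4% of all probe sets), with a median of 0.12. Neither call held without zone 2 replicate 1, zone 2 replicate 2 or zone 1 replicate 2, and on standard medium 0 were higher and 2 lower (median -0.17). HTB4, a histone H2B gene added here outside the naming rule, read 3626 and 4198 in zone 2, against 3584 and 4476 in zone 1. These values overlapped (-0.04 ± 0.18, adjusted p = 0.897).

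SIM, the cyclin-dependent kinase inhibitor SIAMESE that favours DNA copying without division, went the other way. It read 1145 and 942 in zone 2, against 231 and 133 in zone 1 (2.51 ± 0.30, adjusted p = 0.000848), and stayed called without any of the 4 arrays. Its level was held above the meristem, with means of 1043 in zone 3 and 1701 in zone 4. BBM, an AP2 factor of the PLETHORA group that acts in the stem cell niche, read 3.92 and 14.3 in zone 2, against 90.9 and 127 in zone 1 (-2.85 ± 0.54, adjusted p = 0.00382). Its zone 2 values straddled the offset. Of the 3 measured niche genes BBM was the one called.

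Every measured gene of the list for ribosome assembly was lower in zone 2. The list named 24 loci, and 11 genes were measured. All 11 were called lower (100%, beside 17.2% of all probe sets), with a median of -1.49. YAO, a nucleolar protein of ribosomal RNA processing, read 438 and 318 in zone 2, against 1445 and 1252 in zone 1 (-1.83 ± 0.34, adjusted p = 0.00337). DIM1A, which methylates ribosomal RNA, read 249 and 349, against 789 and 897 (-1.49 ± 0.29, adjusted p = 0.00411). AT3G03920 was brighter still, at 1945 and 2075, against 5749 and 5443 (-1.47 ± 0.23, adjusted p = 0.00189). Of the 11 calls, 6 held without replicate 1 of either zone and 4 without replicate 2 of either zone.

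RNA polymerase subunits fell alongside. Of 12 measured, 9 were lower (75%, beside 17.2% of all probe sets) and 0 higher (median -1.33). NRPA2, the second-largest subunit of RNA polymerase I, which makes ribosomal RNA, read 523 and 504 in zone 2, against 1729 and 1602 in zone 1 (-1.68 ± 0.33, adjusted p = 0.00403). NRPC2 of RNA polymerase III differed by -1.50 ± 0.30 and NRPB6A, a small subunit, by -1.28 ± 0.20 (adjusted p = 0.00197). These 3 kept the call without each of the 4 arrays. Of the 9 calls, 6 held without replicate 1 of either zone and 5 without replicate 2 of either zone.

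Cytosolic ribosomal protein genes shifted less. Of 120 measured genes, out of 130 on the array, 48 were lower (40%) and 0 higher, with a median of -0.57, and 119 had a negative difference. Of all 16505 probe sets 17.2% were lower, the median was -0.15, and 9362 had a negative difference. AT4G25890 read 1820 and 1241 in zone 2, against 3236 and 3402 in zone 1 (-1.14 ± 0.19, adjusted p = 0.00226). AT5G15520 read 985 and 1028, against 2010 and 2174 (-1.05 ± 0.20). The number called depended on scaling, with 18 lower after median centring and 35 after quantile normalization. It also depended on single arrays, with 12 kept without zone 2 replicate 1, 6 without zone 2 replicate 2, 15 without zone 1 replicate 1 and 5 without zone 1 replicate 2. Ribosomal protein genes have close paralogues, and a probe set may read more than 1 of them. Of 62 measured genes of the plastid genome 5 were lower and 0 higher (median -0.84). The share called lower was 8.06%, below the 17.2% of all probe sets. One of the 5, the protease subunit gene clpP, read 1686 and 1847, against 3280 and 4221 (-1.07 ± 0.34), a call lost without any of the 4 arrays. The plastid median rested on 1 array, with log2 levels of 8.34 and 6.90 in zone 2, against 8.45 and 8.35 in zone 1, and 2 or 3 calls were left under the other scalings. Of 6 SNF2-type CHR chromatin remodeler genes 4 were lower (66.7%), CHR24 by -1.44 ± 0.35. Their calls were all lost without replicate 2 of either zone.

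**Figure D3:**
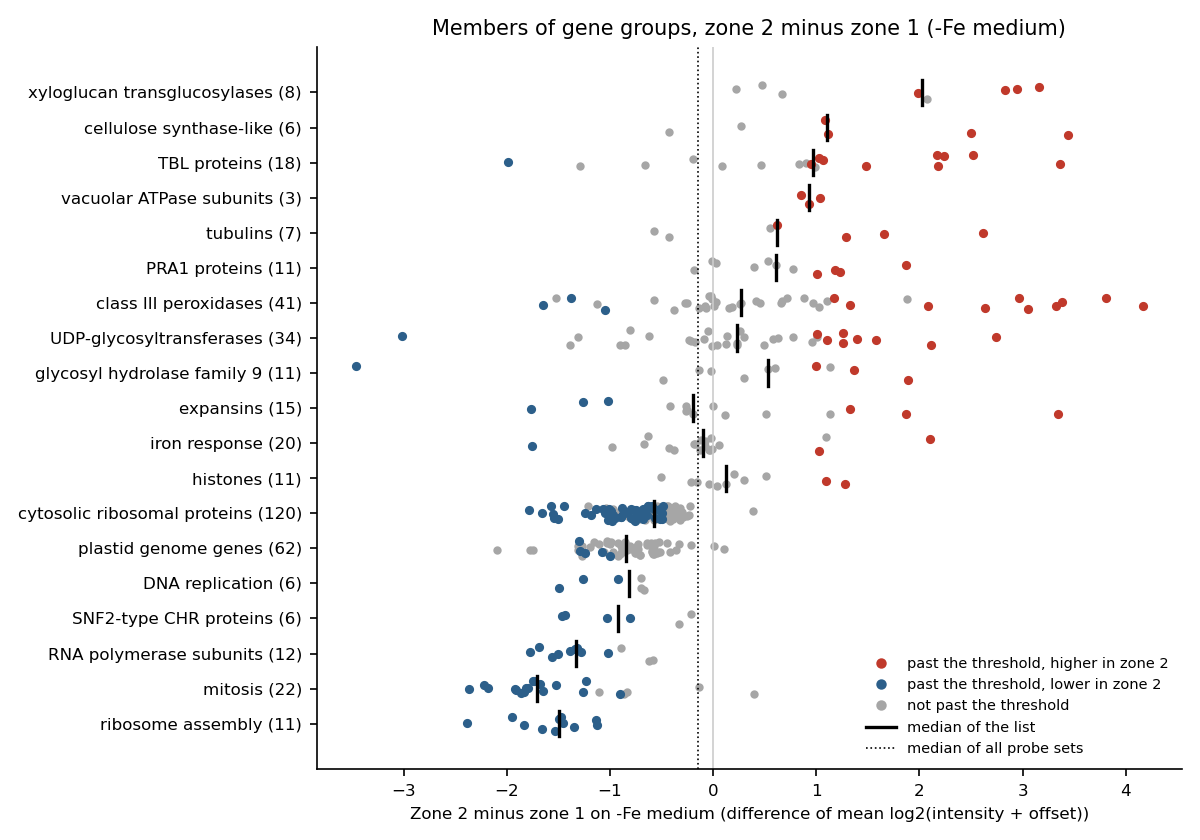
Log2 difference, zone 2 minus zone 1 on -Fe medium, of each measured member of 19 gene groups, with the number of members in brackets, the group median as a bar and the median of all probe sets as a dotted line. The medians of ribosome assembly, mitosis and polymerase genes lie left of the dotted line, at -1.49, -1.71 and -1.33, and that of xyloglucan transglucosylases right of it, at 2.03.

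Several families that remodel or build the cell wall had members that rose in zone 2. Xyloglucan transglucosylases cut and rejoin the tethers between cellulose fibrils. Of 8 measured members, out of 10 on the array, 4 were higher (50%) and 0 lower (median 2.03). Over all probe sets 13.4% were higher and 17.2% lower. XTH16 read 1560 and 1347 in zone 2, against 225 and 106 in zone 1 (3.16 ± 0.42, adjusted p = 0.00111). XTH21 read 166 and 179, against 19.6 and 15.8 (2.83 ± 0.52, adjusted p = 0.00333). Both kept the call without each of the 4 arrays. XTH19 (2.95 ± 0.69) lost it without replicate 2 of either zone, with adjusted p up to 0.0923, and XTH33 (1.98 ± 0.70) without any but zone 1 replicate 1, with adjusted p up to 0.309.

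The members differed in where they peaked. XTH16 had its highest -Fe level in zone 2, with means of 413 in zone 3 and 28.9 in zone 4. XTH21 went on to a mean of 1945 in zone 3, against 324 in zone 4. XTH33 likewise reached 835 in zone 3 and 90.6 in zone 4.

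Expansins loosen walls without cutting them. Of 15 measured, 3 were higher (20%) and 3 lower (20%), near the 13.4% and 17.2% of all probe sets, with a median of -0.19 that turned to 0.07 under quantile normalization. EXPA9 read 595 and 638 in zone 2, against 281 and 207 in zone 1 (1.32 ± 0.29, adjusted p = 0.00707). EXPA4 read 22.6 and 28.3, against 84.2 and 130 (-1.77 ± 0.51, adjusted p = 0.0209). None of the 6 calls held without replicate 2 of either zone, EXPA4 at adjusted p up to 0.138. In the endoglucanase family 9, 3 of 11 were higher (27.3%) and 1, GH9B6, lower (9.09%), beside 13.4% and 17.2% of all probe sets. GH9C2 lost the call without any of the 4 arrays, and GH9C3 without any but zone 2 replicate 1. GH9B5 read 90.0 and 71.8, against 18.9 and 13.5 (1.89 ± 0.39, adjusted p = 0.00504). None of 3 pectin methylesterase genes was called, and the arrays of ATPMEPCRB overlapped, at 609 and 165 in zone 2, against 304 and 11.8 in zone 1 (2.07 ± 1.05, adjusted p = 0.154).

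Several measured genes for wall synthesis were higher. Of 6 cellulose synthase-like genes 4 were higher (66.7%, beside 13.4% of all probe sets) and 0 lower (median 1.10), CSLA03 among them. CSLC04, which makes the xyloglucan backbone, read 1483 and 1565 in zone 2, against 404 and 170 in zone 1 (2.50 ± 0.43, adjusted p = 0.00247). COB, a cell-surface protein needed for oriented cellulose deposition, read 1821 and 1699, against 821 and 573 (1.35 ± 0.20, adjusted p = 0.00161). CSLC04 and COB kept the call without each of the 4 arrays. Of 10 loci listed for cellulose synthesis, COB was the 1 measured. Of the 4 calls among cellulose synthase-like genes, 2 held without replicate 2 of either zone.

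Of 18 measured TBL genes, out of 22 on the array, 9 were higher (50%) and 1 lower (5.56%), with a median of 0.97. The shares over all probe sets were 13.4% and 17.2%. TBL25 read 436 and 408 in zone 2, against 155 and 138 in zone 1 (1.48 ± 0.24, adjusted p = 0.00206). TBL45 read 26.0 and 13.6, against 75.3 and 128 (-1.99 ± 0.45, adjusted p = 0.00782). Of these 10 calls 4 held without zone 2 replicate 1, 6 without zone 2 replicate 2, 9 without zone 1 replicate 1 and 2, TBL19 and TBL25, without zone 1 replicate 2.

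Tubulins, the subunits of the microtubules that guide cellulose deposition, also rose in part. Of 7 measured, 4 were higher (57.1%, beside 13.4% of all probe sets) and 0 lower (median 0.62). TUB1 read 3259 and 3054 in zone 2, against 1052 and 244 in zone 1 (2.62 ± 0.51, adjusted p = 0.00414), and was 1.58 without zone 1 replicate 2 and 3.65 without replicate 1. TUB6 read 1773 and 2239, against 762 and 864 (1.29 ± 0.25, adjusted p = 0.00386). TUB1 and TUB6 kept the call without each of the 4 arrays, whereas TUB5 and TUB9 lost it without 3 of them. TUA6, an alpha-tubulin gene, had 5680 and 6032 in zone 2, against 4096 and 3876 in zone 1, and was not called (0.55 ± 0.30, adjusted p = 0.179).

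Class III peroxidases, secreted heme enzymes that can stiffen or loosen walls, held some of the largest increases. Of 41 measured, out of 55 on the array, 10 were higher (24.4%) and 3 lower (7.32%), beside 13.4% and 17.2% of all probe sets, with a median of 0.27. AT2G37130 read 1101 and 1667 in zone 2, against 112 and 40.5 in zone 1 (4.16 ± 0.54, adjusted p = 0.00105). AT4G30170 read 3537 and 4053, against 575 and 117 (3.81 ± 0.49, adjusted p = 0.00108). AT3G01190 read 4638 and 4242, against 1148 and 150 (3.38 ± 0.63, adjusted p = 0.00355).

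These 3 kept the call without each of the 4 arrays, while AT5G17820 (3.32 ± 0.78) lost it without zone 1 replicate 2. AT2G22420 was the member with the largest decrease, at 25.4 and 12.9 in zone 2, against 56.4 and 96.7 in zone 1 (-1.65 ± 0.34, adjusted p = 0.00537). Of the 13 calls, 5 held without zone 2 replicate 1, 7 without zone 2 replicate 2, 11 without zone 1 replicate 1 and 3 without zone 1 replicate 2. Of the 13, 11 moved further in the same direction between zone 2 and zone 3. AT2G37130 reached 3590 and 6095 in zone 3 and 8161 and 9338 in zone 4. AT4G30170 peaked in zone 3, at 5189 and 5613, with 1818 and 2420 in zone 4.

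Genes of secretion and the vacuole shifted more modestly and upward. Of 11 PRA1 genes, which act in membrane traffic with Rab GTPases, 4 were higher (36.4%, beside 13.4% of all probe sets) and 0 lower (median 0.61). Of the 4, all held without replicate 1 of either zone, 1 without zone 2 replicate 2 and 0 without zone 1 replicate 2. PRA1.B6 read 2633 and 2283 in zone 2, against 996 and 443 in zone 1 (1.87 ± 0.39), a call lost without zone 1 replicate 2 (adjusted p = 0.0586). Of 9 exocyst and SEC genes 3 were higher (33.3%), SEC15B by 1.09 ± 0.25 (adjusted p = 0.00827). These exocyst and SEC calls were all lost without zone 1 replicate 2, and also without zone 2 replicate 1. The 3 measured genes for subunit a of the proton pump VHA were all higher, with 0.85 ± 0.26 for VHA-A1 and 0.93 ± 0.20 for VHA-A3. VHA-A2 read 1057 and 1371 in zone 2, against 527 and 645 in zone 1 (1.04 ± 0.20, adjusted p = 0.00368). VHA-A2 alone of the 3 kept the call without each of the 4 arrays.

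Enzymes that conjugate small molecules were also uneven. Of 34 measured UDP-glycosyltransferases, out of 47 on the array, 8 were higher (23.5%) and 1 lower (2.94%), beside 13.4% and 17.2% of all probe sets (median 0.23). Of these 9 calls, 5 held without zone 2 replicate 1, 6 without zone 2 replicate 2, 8 without zone 1 replicate 1 and 3 without zone 1 replicate 2. UGT71C1, known to glucosylate flavonoids, read 456 and 587 in zone 2, against 91.9 and 54.4 in zone 1 (2.74 ± 0.35, adjusted p = 0.00104). UGT76C2, which glucosylates cytokinins, was the one that fell, at 4.70 and 5.84 in zone 2, against 59.98 and 154 in zone 1 (-3.01 ± 0.61, adjusted p = 0.00485). Its call was lost without zone 1 replicate 2 (adjusted p = 0.0552), and its mean was 64.9 in zone 3. Of 13 glutathione transferases 4 were higher (30.8%) and ATGSTF13 lower (7.69%). GSTU28 differed by 2.41 ± 0.57, on 171 and 136, against 42.8 and 10.4. Its call was lost without zone 1 replicate 2 or zone 2 replicate 1, and its difference ran from 1.67 to 3.15 without single arrays. Of these 5 calls 1 held without zone 1 replicate 2. Of 11 cytochrome P450 genes 2 were higher (18.2%) and 1 lower (9.09%), beside 13.4% and 17.2% of all probe sets. These P450 calls were lost without zone 1 replicate 2.

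Auxin genes moved in both directions. IAA20 and IAA33, of the Aux/IAA repressors, were lower, IAA20 at 5.47 and 0.753 in zone 2, against 36.2 and 27.8 in zone 1 (-1.90 ± 0.47, adjusted p = 0.0111). The other 3 measured members were not called, and neither call held without replicate 2 of either zone. Among the GH3 enzymes, which couple auxin to amino acids, GH3.17 was higher at 383 and 497, against 172 and 88.4 (1.76 ± 0.42, adjusted p = 0.0101), and WES1 lower at 30.2 and 24.4, against 69.3 and 72.4 (-1.17 ± 0.28, adjusted p = 0.00912). Both lost the call without replicate 2 of either zone.

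The families of SWEET sugar carriers and RALF peptides each had 1 member that held without zone 1 replicate 2. SWEET16, a sugar carrier of the vacuole membrane, read 242 and 223 in zone 2, against 56.4 and 46.2 in zone 1 (2.03 ± 0.28, adjusted p = 0.00132). Of 6 SWEET genes 2 were higher (33.3%, beside 13.4% of all probe sets). RALFL33, a gene for a secreted peptide of the RALF family, read 756 and 911, against 176 and 119 (2.46 ± 0.36, adjusted p = 0.00146), and of 7 such genes 2 were higher (28.6%). GSO1, a receptor kinase needed for a closed Casparian strip, read 277 and 152, against 96.9 and 60.6 (1.33 ± 0.35, adjusted p = 0.014). SWEET16 and RALFL33 kept the call without each of the 4 arrays, and GSO1 lost it without zone 1 replicate 2 or zone 2 replicate 1 (adjusted p up to 0.126).

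Further families had calls in both directions, at shares near those of all probe sets (13.4% and 17.2%) for IQD and carboxypeptidase-like genes. Of 13 calmodulin-binding IQD genes 2 were higher (15.4%) and 3 lower (23.1%), with IQD19 at 361 and 284 in zone 2, against 72.1 and 23.2 in zone 1 (2.72 ± 0.45, adjusted p = 0.00215), opposite to IQD16. Of 10 TRM genes, named for binding TON1 at microtubules, 3 were higher (30%) and 2 lower (20%), with TRM26 higher by 1.81 ± 0.36. Of 21 serine carboxypeptidase-like genes 4 were higher (19%) and 4 lower (19%), with a median of -0.14 that turned to 0.02 under median centring and 0.06 under quantile normalization. Among them scpl40 read 1065 and 841, against 188 and 63.3 (3.02 ± 0.47, adjusted p = 0.00182), and scpl50 read 46.4 and 44.1, against 167 and 147 (-1.63 ± 0.32, adjusted p = 0.00404). IQD19, TRM26, scpl40 and scpl50 kept the call without each of the 4 arrays. Without zone 1 replicate 2, 2 of 5 IQD, 1 of 5 TRM and 2 of 8 carboxypeptidase-like calls held.

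Few iron-response genes were called. Of 20 measured, 2 were higher (10%) and 1 lower (5%) in zone 2, beside 13.4% and 17.2% of all probe sets, with a median of -0.10 that turned to 0.07 under median centring. BHLH101 and PYE, bHLH factors of the response, are added here for their role and outside the naming rule. BHLH101 read 59.2 and 84.1 in zone 2, against 87.6 and 146 in zone 1 (-0.63 ± 0.50, adjusted p = 0.372). PYE read 107 and 131, against 155 and 92.8 (-0.02 ± 0.33, adjusted p = 0.967).

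The factor gene bHLH115 was the regulator called. It read 274 and 297 in zone 2, against 174 and 105 in zone 1 (1.03 ± 0.36, adjusted p = 0.0466), and the call was lost without any but zone 1 replicate 1 (adjusted p up to 0.297). AT3G58060 read 54.0 and 44.9, against 2.93 and 8.77 (2.105 ± 0.52, adjusted p = 0.0115), and lost the call without any but zone 1 replicate 2. AT3G61930 read 108 and 72.5, against 289 and 348 (-1.75 ± 0.56, adjusted p = 0.0335), and lost it without any of the 4 arrays. All 3 had higher means in zone 4 than in either meristem zone, with 1181 for bHLH115, 870 for AT3G58060 and 3442 for AT3G61930.

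The zone 3 and zone 4 arrays place these shifts along the root. Of the 2216 probe sets higher in zone 2, 1317 (59.4%) had a higher mean again in zone 3, against 46.9% of all probe sets, and 318 fell back by over 2-fold. Of the 2846 lower in zone 2, 2259 (79.4%) had a lower mean still in zone 3, and 168 came back by over 2-fold. Zone 2 enters both differences, so an array value that is high or low there moves them in opposite directions. All 48 called ribosomal protein genes and all 11 called assembly genes were lower again in zone 3, as were 16 of 17 mitosis genes.

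The groups differed in how they went on. The median level of the ribosome assembly genes on the log2 scale was 10.5 and 10.3 in zone 1. It was 8.80 and 8.48 in zone 2, 6.99 and 6.18 in zone 3, and reached 6.74 and 6.48 in zone 4. The mitosis genes had medians of 7.95 and 7.99 in zone 1, then 6.81 and 6.29 (zone 2), 5.00 and 4.51 (zone 3), and 5.78 and 5.70 (zone 4). Tubulins peaked in zone 2, at 11.08 and 11.13, and were at 7.76 and 7.80 in zone 4. The peroxidase median was 5.49 and 5.27 in zone 2, against 5.44 and 5.07 in zone 1, and reached 8.80 and 8.56 in zone 3. The median of the family thus overlapped between zones 1 and 2, although 10 members were called higher.

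**Figure D4:**
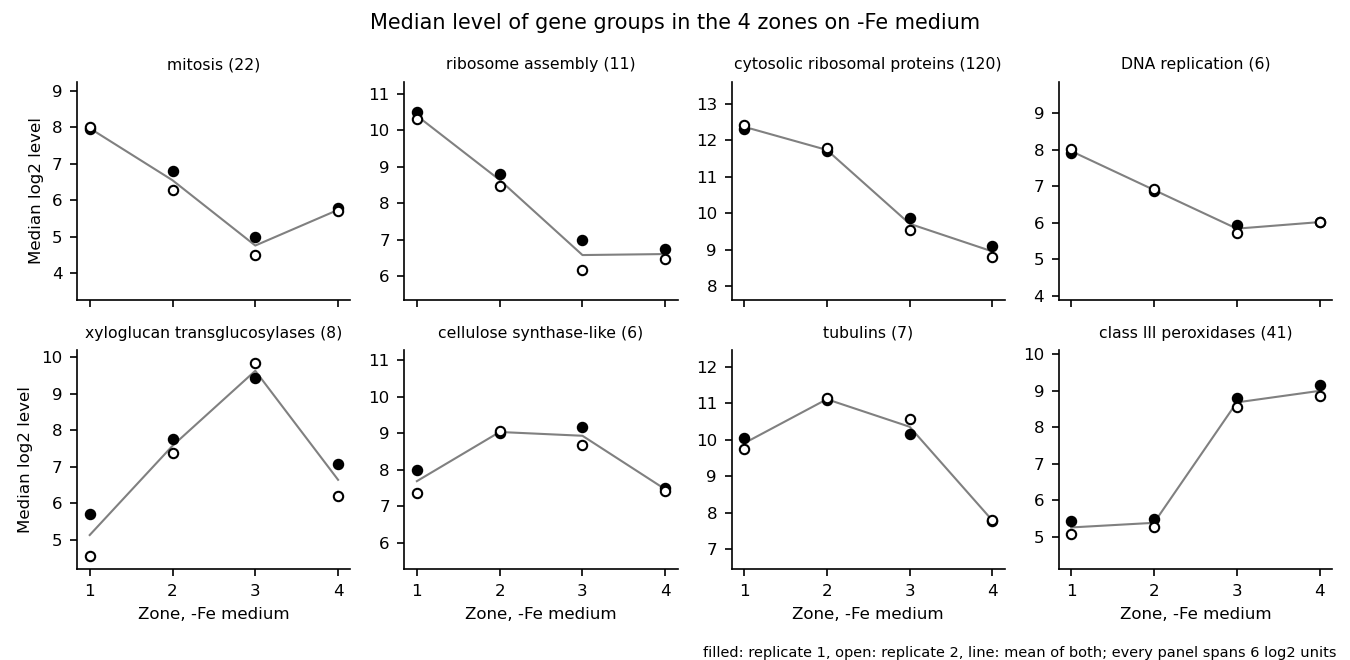
Median log2(intensity + offset) of 8 gene groups in zones 1 to 4 on -Fe medium, with filled points for replicate 1, open points for replicate 2, a line through the means, and 6 log2 units per panel. Ribosome assembly genes drop through zones 2 and 3, tubulins peak in zone 2 at 11.08 and 11.13, and the peroxidase median steps up in zone 3, to 8.80 and 8.56.

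The same step on standard medium was measured on 4 other arrays, with a shared estimate of the spread. There 1754 probe sets were higher (10.6%) and 1623 lower (9.83%) in zone 2. Of the increases, 1489 were called on both media, which is 67.2% of those on -Fe medium and 84.9% of those on standard medium. Of the decreases, 1455 were, which is 51.1% and 89.6%, and 0 probe sets were called in opposite directions. Among the 5062 calls on -Fe medium 5041 (99.6%) had the same sign on standard medium. The log2 differences on both media correlated at 0.903 across probe sets, which are not independent replicates.

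Whether the step differed between media was tested on the difference itself, and limma called 0 of 16505 probe sets (0%), with 152 at an unadjusted p under 0.05. That does not show that the steps were equal. Of the 28 genes with the largest differences 2 had an unadjusted p under 0.05. AT1G61840 differed by 5.03 on -Fe medium and 3.16 on standard medium, a difference between media of 1.86 ± 0.76. AT5G40320 differed by -3.42 on -Fe medium and -2.26 on standard medium, a difference of -1.16 ± 0.51. The 28 were chosen for their size on -Fe medium, so a smaller value on standard medium follows in part from the choice. The iron-response locus AT3G58060 differed by 2.105 on -Fe medium and -0.15 on standard medium, where all 4 values lay between 1.67 and 4.64 intensity units, a difference between media of 2.25 ± 0.74. For all 3 genes limma's adjusted p was 1.00.

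**Figure D5:**
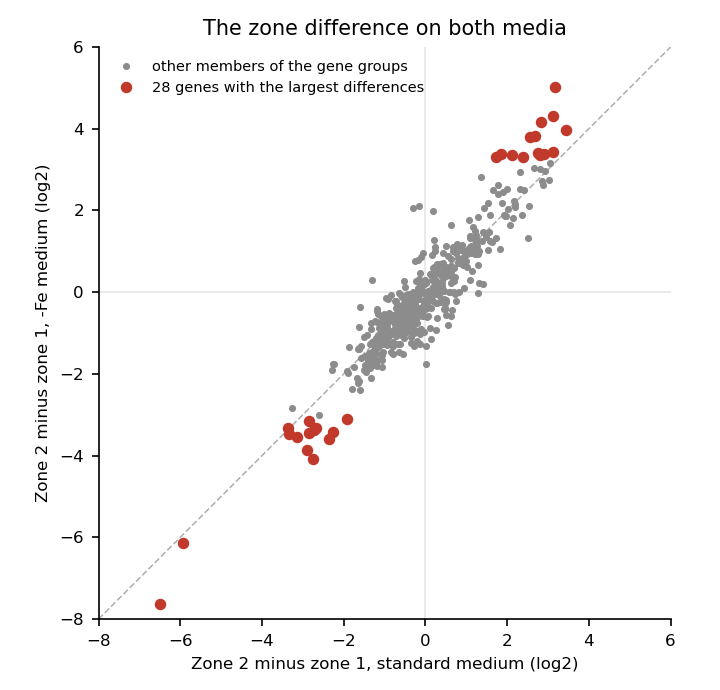
Log2 difference, zone 2 minus zone 1, on -Fe medium (vertical) against standard medium (horizontal) for 559 genes, the 28 with the largest differences in red and the other gene group members in grey, with a dashed line of equality. All 28 have the same sign on both media, and 65 of the 559 genes have opposite signs.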

How the data were processed

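The deposited values were array intensities on a linear scale, made with MAS5 per the submitters' processing notes, which name no version. The mean between the 2nd and 98th percentiles was 250.02 to 250.03 on every array, so the deposited intensities were scaled globally. RNA was labelled with biotin after 2 cycles of amplification, per the labels' protocols. Of 22810 probe sets 64 controls were left out. GEO's platform annotation names 1 gene for 13513 of the rest and several genes for 503, and it omits 8730. Symbols came from RefSeq's TAIR10.1 table. Tests ran on log2(intensity + 7.728), an offset equal to the 20th percentile of all values. Probe sets above the 40th percentile of their own array on at least 2 of 16 arrays were tested, and 9167 of the 16505 stood for 1 gene each, 9091 genes in all. The filter can pass a probe set through the zone where it is high.

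The model, fitted with limma 3.58.1 (R 4.3.3), had 8 group means over all 16 arrays, a trended variance prior and 8 residual degrees of freedom. The fit was tested on simulated data. The members and lists were chosen with earlier results of these data known. The text names, in each direction, the 14 called genes of largest difference without overlap of arrays, and up to 6 called members of each list by adjusted p, filled up to 3 members by mean level. Where a gene had several probe sets, the one with the highest mean level was used. Most families were drawn up after the values were seen, by symbol or by loci from general knowledge of published family lists, since the annotation gives most genes a locus code alone. This holds for the peroxidase, ribosomal protein, ribosome assembly and iron-response lists and part of the mitosis, replication and histone lists. Same-numbered replicates were not treated as pairs. Their deviations correlated at 0.276 between zones 1 and 2 on -Fe medium, and at -0.0138 to 0.383 over all pairs of -Fe zones. No sequence was used here.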

Additional observations from a re-analysis of the deposited data

How the results depend on the processing

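The 5062 calls between the -Fe zones became 1400 to 3435 when single arrays were left out, and 4516 to 6516 under the other alternatives, with the direction kept for every one of the 28 largest differences that was tested (27 under the stricter filter, 28 under the others). With the replicate number as a block the count was 5607, and with a block per medium 5469. No such block is used as a pairing, because the numbers were not shown to pair the samples. Of the 28 genes, 4 lost the call without zone 1 replicate 2 and 1 without zone 2 replicate 2. Of 171 genes named by the rule, 86 lost it without zone 1 replicate 2, 69 without zone 2 replicate 2, 46 without zone 2 replicate 1 and 22 without zone 1 replicate 1, where fewer arrays were in the fit. At most 10 lost it under any other alternative, the 10 without an offset. The 171 include uncalled members filled in by mean level, which had no call to lose. As shares of 171 these counts therefore understate the losses. The difference between media stayed at 0 calls under every alternative, with 70 to 445 probe sets at an unadjusted p under 0.05. Among list medians, signs turned for the 20 iron-response genes under median centring (0.069, against -0.10) and for the Aux/IAA repressors under the stricter filter (0.99, against -0.56), which left fewer members. Under at least 1 alternative the sign also turned for carboxypeptidase-like, IQD, expansin, glutathione transferase and root hair genes and a shorter iron-response list (11 genes), with IQD at 0.18 under the stricter filter and 0.11 without zone 1 replicate 2, against -0.20. With 2 arrays per group the number of arrays limits precision, and intensities under the offset have no firm size or order.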

Other observations

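Several regulatory genes outside the lists were picked from the called genes after their values had been seen, so their values are a description. UPB1, a bHLH factor known to repress peroxidase genes at the end of the meristem, read 296 and 331 in zone 2, against 43.9 and 26.0 in zone 1, on -Fe medium (2.94 ± 0.51), with means of 265 in zone 3 and 40.8 in zone 4. BIM1, a bHLH partner in brassinosteroid signalling, read 670 and 529, against 128 and 56.2 (2.70 ± 0.38). The receptor kinase gene FER, for a receptor of RALF peptides, read 1404 and 942, against 472 and 461 (1.29 ± 0.21), and its mean went on to 2479 in zone 3. TET10, a tetraspanin gene, read 82.4 and 85.2, against 339 and 437 (-2.10 ± 0.23). SPT, a bHLH factor known to limit organ growth, read 29.8 and 51.8, against 169 and 224 (-2.10 ± 0.32). AGO7, which binds a small RNA in the tasiRNA pathway, was near the bottom of the scale at 2.92 and 3.08, against 49.4 and 51.7 (-2.44 ± 0.40). All 6 had the same direction on standard medium.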
